A study of Homo sapiens with 9 samples.

Results

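Matricellular proteins are secreted into the space around cells, where they bind receptors, growth factors and matrix fibers and change how a cell meets its matrix without forming much of that matrix themselves. Here the transcripts of 10 such genes were followed in HEK293, a line of cells from human embryonic kidney, after stable expression of MEK1 with an HA tag. MEK1, the product of MAP2K1, is the kinase that phosphorylates ERK. The 3 lines carried MEK1 WT, MEK1 F53S, a mutant found in RASopathies, or MEK1 K57N, a mutant found in tumors, and each line was measured on 3 arrays read with 1 dye, Cy3. All cells were grown in medium with serum, the plasmids carried the tagged protein on a retroviral backbone (pQCXIP), each form of MEK1 was represented by 1 stable line made by transfection and selection with puromycin, and the mutation cannot be told apart from anything else that differs between the lines. The members are the probes, other than controls, that the array's annotation assigns to SPARC, SPARCL1, SMOC1, SMOC2, SPOCK1, SPOCK2, THBS1, THBS2, SPP1 or TNC. They are 15 of 50598 probes. The 10 genes were chosen by name, with values of these arrays known. Which of the 3 comparisons of the lines were known is not stated, so all 3 are treated as used by the choice. The values below are thus a description of the genes. The adjusted p from the fit over all genes is no independent evidence that the group was altered.

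SPARC (osteonectin), SPARCL1 (hevin), SMOC1, SMOC2 and the testicans SPOCK1 and SPOCK2 share a follistatin-like domain and an extracellular calcium-binding domain with EF hands. THBS1 and THBS2 are the trimeric thrombospondins, which bind CD47 and CD36 and restrain vessel growth, and THBS1 also activates latent TGF-beta. TNC (tenascin-C) is a large matrix protein with arms joined at a hub, and SPP1 (osteopontin) is a phosphoprotein of the SIBLING group that binds integrins and CD44. Several of these genes are known to respond to ERK signaling in other cells, which is the pathway that MEK1 activates.

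Signals are given as log2 of the scanner's processed signal less the 75th percentile of the same array, so that 0 is the signal at that percentile. Replicate 1 of each line was on slide 1 and replicates 2 and 3 were on slide 2. Processed signals had a 75th percentile between 243 and 373 on slide 1 and between 691 and 814 on slide 2. On slide 1 between 23711 and 26110 probes were well above background, and on slide 2 between 27114 and 29319. A probe was tested where all 3 arrays of some line read it well above background, and a gene with several such probes was represented by the brightest. This left 19209 genes, among them 8 of the 10 members. SPARCL1 and SPP1 were not well above background on any of the 9 arrays and have no comparison. SPOCK1 passed by its K57N arrays alone, with 2 of 3 arrays well above background in each of the other lines, so it was partly selected to be higher there. The other 7 members passed in WT cells. Of these, THBS2 did not pass in K57N cells, with 2 of 3 arrays well above background. It was thus partly selected to be lower there. A gene is called higher or lower at an adjusted p below 0.05 (limma, Benjamini-Hochberg over all genes) and a difference of more than 2-fold. The number of arrays, 3 per line, limits the precision. For the 8 members the standard errors of log2 fold changes were between 0.18 and 0.53, and between 0.14 and 0.54 in the fit that had a term for the slide.

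**Figure D1:**
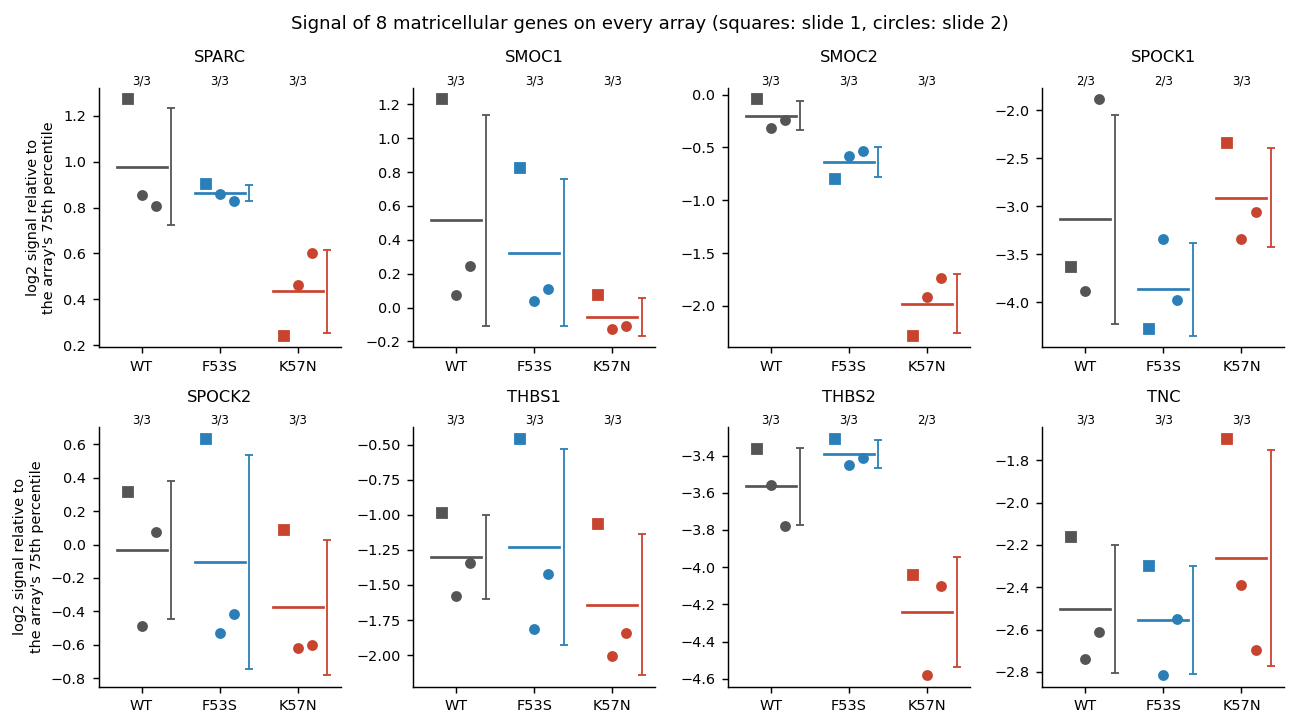
Log2 signal relative to the array's 75th percentile (y axis, a separate scale for each gene) on every array of the 3 lines (x axis). Squares are slide 1, circles slide 2, horizontal bars the mean and error bars the SD over 3 arrays, and the fractions give how many of the 3 arrays were well above background. The K57N arrays lie below all WT arrays for SPARC, SMOC2 and THBS2 and overlap them for the other 5 genes.

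In K57N cells 1 of the 8 members tested, SMOC2, was called lower than in WT cells and 0 were called higher. Among all 19209 genes 0.734% were called lower and 1.56% higher. Since the same comparison is treated as known when the genes were chosen, nothing is read from the members' share. For 3 of the 8, SPARC, SMOC2 and THBS2, the 3 K57N arrays all lay below the 3 WT arrays, which was so for 12.2% of all genes with values on these arrays. They lay above for 0 of the 8, beside 10.5% of all genes, and the arrays overlapped for the other 5. Of these, SMOC1, SPOCK2 and THBS1 were lower in K57N than in WT cells within every replicate number, while SPOCK1 and TNC went both ways. None of these was called with replicate number as a term. No share of all genes is given for this, so nothing is read from it. The median log2 fold change of the 8 members was −0.44, beside −0.05 for all genes tested. In F53S cells it was −0.09, beside 0.02, and without WT replicate 1 it lay between SPOCK2 (0.10) and TNC (0.12). In K57N cells the median without WT replicate 1 lay between SMOC1 (−0.21) and THBS1 (−0.18). The K57N median of −0.44 includes SPOCK1, which passed by the K57N arrays alone, and THBS2, which did not pass in K57N cells. Without SPOCK1 it is the value of SPARC, −0.54, and without both it lies between SPARC and SPOCK2 (−0.34). At an unadjusted p below 0.05, limma gave 3 members, beside 13.1% of all genes, and the methods' t-test also gave 3, beside 13.5%. In F53S cells 0 of 8 members were called lower or higher than in WT cells (limma), as were 0% of all genes, and 1 member, SMOC2, had an unadjusted p below 0.05 by limma (0.895% of all genes) and 1 by the methods' t-test (1.42%). The smallest adjusted p of any gene was 0.242 there, and 43 genes passed an unadjusted p below 0.05 and 2-fold by limma and 24 by the methods' t-test. For SMOC2 the 3 F53S arrays all lay below the 3 WT arrays, as did those of 1.53% of all genes, and 0 members lay above, beside 1.66%.

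SMOC2 encodes a secreted protein with thyroglobulin-like and calcium-binding domains that acts on growth factor and integrin signaling, and it showed the largest difference of the members between K57N and WT cells. It has a probe at chr6:169068504-169068563 and another at chr6:169053787-169053846, both on the plus strand of hg19, the build of all probe positions given here. Each is 60 bases long, and the first 30 bases of each are shown because these probes gave different readings of the same gene.
SMOC2, probe well above background: tgtgcaaggtaaaaatcaagcctttggagc
SMOC2, probe not well above background: tgtgaagaagtttgttgaatactgtgacgt
Whether a probe lies in a coding exon or a UTR was not looked up, since no genome of this build was used. The probe well above background read −0.05, −0.31 and −0.24 on the WT arrays (replicates 1 to 3). It read −0.80, −0.58 and −0.54 on the F53S arrays, and −2.28, −1.92 and −1.73 on the K57N arrays. The 3 lines thus did not overlap, with WT highest, F53S between and K57N lowest. The mean was −0.20 ± 0.14 (SD over 3 arrays) for WT, −0.64 ± 0.14 for F53S and −1.98 ± 0.28 for K57N.

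SMOC2 fell by 1.78 on the log2 scale in K57N cells, which is a 3.43-fold lower signal (standard error 0.19, 95% interval −2.21 to −1.35, adjusted p = 0.00219, limma), and it was lower in K57N than in WT cells in 3 of 3 replicate numbers. The fit with the slide term gave an adjusted p of 2.54e-04. On slide 1, which holds 1 array per line, the K57N array was lower by −2.24, and on slide 2 alone the difference was −1.55 (adjusted p = 0.00113, limma). Over the alternatives with a fit the log2 fold change lay between −1.90 and −1.41 and the adjusted p between 2.54e-04 and 0.0554. Only the adjusted methods' t-test, at 0.0554, missed the threshold, and the call held with any 1 array left out. In a line grown as a bulk culture, fewer cells with the transcript and less of it per cell cannot be told apart. Between F53S and WT cells the SMOC2 difference was −0.44 (95% interval −0.87 to −0.01), with an adjusted p of 1 in either fit, and was not called. The difference between the mutants themselves was tested directly: SMOC2 was 2.53-fold lower in K57N than in F53S cells (log2 fold change −1.34, 95% interval −1.77 to −0.91, adjusted p = 0.0133, or 0.00149 once the slide was fitted). Over the alternatives this adjusted p ran up to 0.125. It was 0.0789 without F53S replicate 2, 0.0827 without F53S replicate 3 and 0.067 without K57N replicate 2, each above the threshold. The same was so with no filter on dim probes (0.106) and with the 2 lines fitted alone (0.0619).

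The other SMOC2 probe gave processed signals between 4.2 and 14.6, which no array read as well above background, so it neither shows the fall nor speaks to it.

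SMOC1, the closest relative of SMOC2, binds BMP pathway ligands and is needed for eye and limb development. Both of its probes (plus strand of chromosome 14, hg19) were tested, and the start of each is shown because they gave differences of unlike size. Whether the probes truly differed was not tested.
SMOC1, brighter probe, chr14:70498782-70498841: ctgccccaacgtggaaaggtgggaaggaag
SMOC1, other probe, chr14:70490104-70490163: aacaaagacaaggtcatttcactgcctgag
The brighter probe read 1.23, 0.07 and 0.24 on the WT arrays, 0.82, 0.04 and 0.11 on the F53S arrays, and 0.08, −0.13 and −0.11 on the K57N arrays. On slide 1 the WT and F53S arrays stood well above those of slide 2, and WT and K57N arrays overlapped by a narrow margin. The K57N difference from WT was −0.57 (95% interval −1.33 to 0.19, adjusted p = 0.59) and was not called. It was −1.15 on slide 1 and −0.28 on slide 2, and −0.21 without WT replicate 1. Its adjusted p with the slide fitted was 0.0556, the lowest of the alternatives, which reached 1. By the other probe the difference was −0.19 (adjusted p = 0.97 over all probes).

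SPARC binds collagen and calcium and is the founding member of its family. Its only probe lies at chr5:151041040-151041099 on the minus strand and starts with ccacatacctagatctccagatgtcatttc, shown because SPARC was among the 3 members whose K57N arrays all lay below WT. It read 1.27, 0.85 and 0.81 on the WT arrays, 0.90, 0.86 and 0.83 on the F53S arrays, and 0.24, 0.46 and 0.60 on the K57N arrays. WT and F53S arrays overlapped, and the K57N arrays lay below both. The K57N difference from WT was −0.54 (95% interval −0.96 to −0.13, adjusted p = 0.2, limma), and was not called. Its adjusted p with the slide fitted was 0.039, which passes 0.05, but the difference is 1.46-fold and so below the 2-fold limit. The difference was −1.03 on slide 1 and −0.30 on slide 2 (adjusted p = 0.0419). Over the alternatives the adjusted p lay between 0.039 and 0.691. K57N minus F53S was −0.43 (adjusted p = 0.456, or 0.0952 once the slide was fitted) and F53S minus WT was −0.11 (95% interval −0.53 to 0.30). The latter changed sign, to 0.01 on slide 2 and 0.03 without WT replicate 1. SPARCL1, an anti-adhesive relative that is abundant in brain and vessels, has 1 probe, printed 10 times on the array (chr4:88394538-88394597, minus strand). Its mean processed signal over those spots was between 4.21 and 8.19, not well above background in any line.

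The testicans are proteoglycans of the same family. SPOCK1 (chr5:136311187-136311246, minus strand) read −3.63, −3.88 and −1.89 on the WT arrays, −4.28, −3.34 and −3.97 on the F53S arrays, and −2.34, −3.34 and −3.05 on the K57N arrays. WT replicate 1 and F53S replicate 1 were not well above background, and WT replicate 3 was the highest of all 9 arrays. The spread of WT, 1.09 (SD), was larger than any difference between the means of the lines. K57N minus WT was 0.23 (95% interval −0.997 to 1.45, adjusted p = 0.991), with 1.30 on slide 1 and −0.31 on slide 2. It changed sign to −0.06 with normexp background correction, so no direction can be given for SPOCK1 in K57N against WT cells. K57N minus F53S was 0.95 (95% interval −0.27 to 2.18, adjusted p = 0.675, limma), and between 0.21 and 1.22 over the alternatives with a fit. F53S minus WT was −0.73 (95% interval −1.95 to 0.49), and between −1.10 and −0.10 over those alternatives. Neither was called. SPOCK2 has 2 probes on chromosome 10 (minus strand), of which the brighter (chr10:73846128-73846187) gave a K57N minus WT difference of −0.34 (adjusted p = 0.879) and the other (chr10:73818826-73818885) one of −0.09 (adjusted p = 0.98 over all probes). The means of the brighter probe were −0.03 ± 0.41 (SD over 3 arrays) for WT, −0.10 ± 0.64 for F53S and −0.38 ± 0.40 for K57N, and all 3 lines overlapped. The difference was −0.17 without WT replicate 1 and −0.58 without K57N replicate 1.

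**Figure D2:**
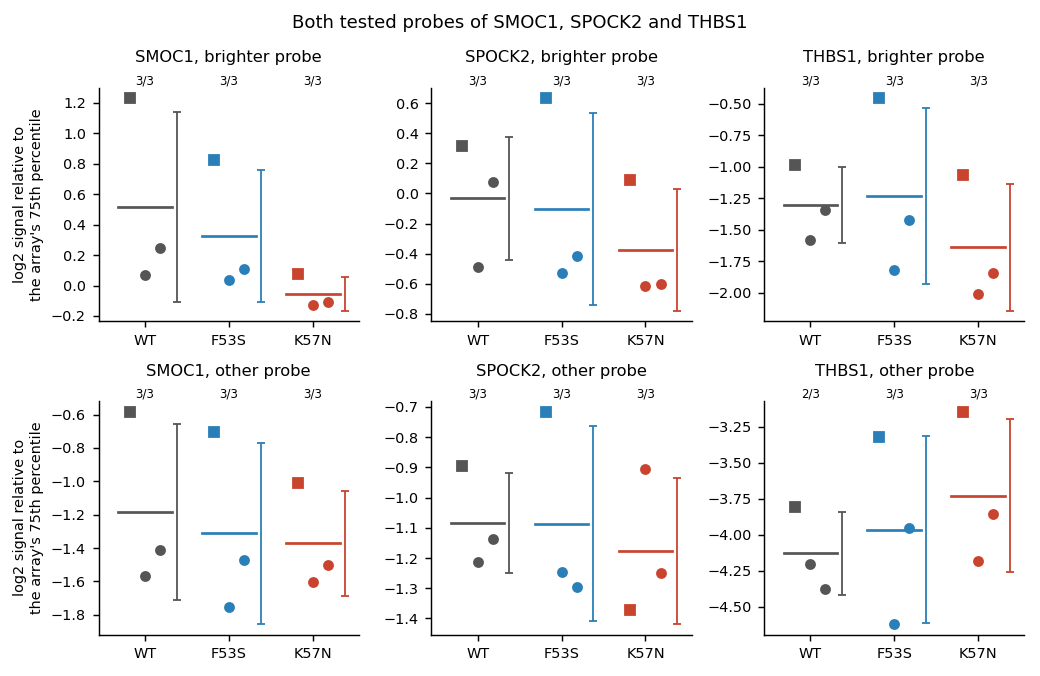
Log2 signal relative to the array's 75th percentile (y axis, a separate scale for each panel) for the 2 tested probes of SMOC1, SPOCK2 and THBS1 in the 3 lines (x axis). Symbols, bars and fractions are as in the plot of the members on every array. For THBS1 the mean of K57N cells is below that of WT cells by the brighter probe. The other THBS1 probe passed the filter through the mutant lines only.

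THBS2 and THBS1 are the thrombospondins among the members. THBS2, a thrombospondin of connective tissue that limits vessel growth, was read by a dim probe at chr6:169615901-169615960 on the minus strand, which starts with ccactgaaaccctgcacttagctagaacct and is shown because its K57N arrays lay below all others. It read −3.36, −3.56 and −3.78 on the WT arrays, −3.31, −3.45 and −3.42 on the F53S arrays, and −4.04, −4.58 and −4.10 on the K57N arrays, where replicate 2 was not well above background. The K57N difference was −0.68 from WT (95% interval −1.12 to −0.23, adjusted p = 0.138) and −0.85 from F53S cells (95% interval −1.30 to −0.40, adjusted p = 0.1), and neither was called. Once the slide was fitted the adjusted p were 0.0135 and 0.00789, with both differences below 2-fold. Within slides K57N minus WT was −0.68 on slide 1 and −0.67 on slide 2 (adjusted p = 0.0558). With normexp background correction the differences were −0.35 from WT and −0.47 from F53S cells. Over the alternatives the adjusted p ran up to 0.98 against WT and 0.989 against F53S cells. The other THBS2 probe (chr6:169620294-169620353) did not rise well above background on any array. THBS1 was read at chr15:39888831-39888890 on the plus strand with means of −1.30 ± 0.30 (SD over 3 arrays) for WT, −1.23 ± 0.70 for F53S and −1.64 ± 0.50 for K57N. The 3 lines overlapped, and K57N minus WT was −0.34 (95% interval −1.22 to 0.55, adjusted p = 0.899), which was not called. It was −0.62 without K57N replicate 1 and −0.15 without K57N replicate 2. The differences were −0.08, −0.43 and −0.50 in replicates 1 to 3. Its other probe (chr15:39874546-39874605) was well above background on only 2 of 3 WT arrays and passed through the mutant lines, so it was partly selected to be higher there, and its difference of 0.40 (adjusted p = 0.827 over all probes) is not set against that of the brighter probe.

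TNC and SPP1 are the remaining members. TNC (chr9:117783310-117783369, minus strand) read −2.16, −2.74 and −2.61 on the WT arrays, −2.30, −2.81 and −2.55 on the F53S arrays, and −1.70, −2.39 and −2.70 on the K57N arrays. In each line the slide 1 array was the highest, and the lines overlapped. K57N minus WT was 0.24 (95% interval −0.42 to 0.90, adjusted p = 0.912), with 0.47 on slide 1 and 0.13 on slide 2, and it was −0.04 without K57N replicate 1. For SPP1 (chr4:88903920-88903979, plus strand), the mean processed signal over 10 spots of its 1 probe was between 5.36 and 15.4, not well above background on any array. A change of SPP1 or SPARCL1 within the range below background could not be seen.

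**Figure D3:**
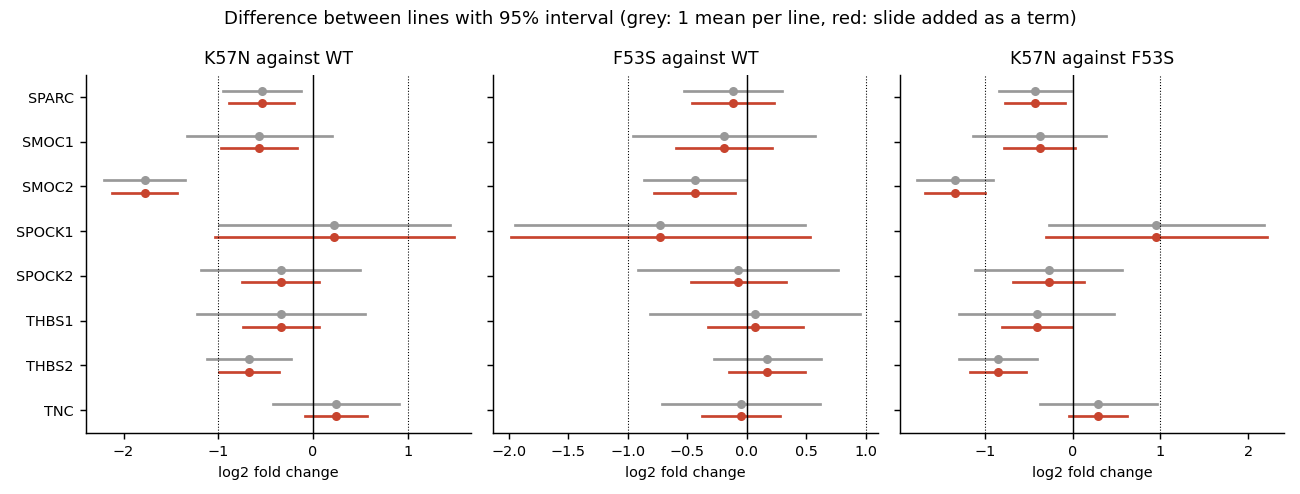
Log2 fold change (x axis) of the 8 members tested (y axis) in the 3 comparisons, with the 95% interval of the fit with 1 mean per line (grey) and with slide as a term (red). Dotted lines mark 2-fold. The interval of SMOC2 lies beyond 2-fold in K57N against WT cells, between −2.21 and −1.35.

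**Figure D4:**
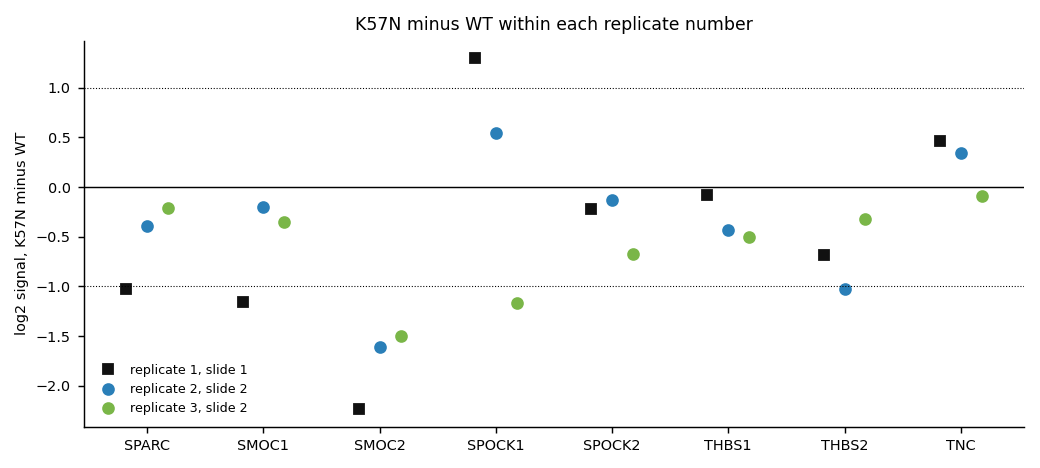
Log2 signal of K57N minus WT cells (y axis) within each replicate number for the 8 members (x axis). Squares are replicate 1 on slide 1, and circles are replicates 2 and 3 on slide 2. All 3 differences of SMOC2 lie between −2.24 and −1.49, and those of SPOCK1 between −1.17 and 1.30.

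Compared with F53S cells, K57N cells had 1 member called lower, SMOC2, and 0 called higher (limma), beside 0.245% and 0.958% of all genes. At an unadjusted p below 0.05, limma and the methods' t-test each gave 3 members, beside 10.3% and 10.5% of all genes. The K57N arrays all lay below the F53S arrays for SPARC, SMOC2 and THBS2, as for 10.1% of all genes, and above them for 0 members, beside 8.43%. The median of the 8 members was −0.39, beside −0.06 for all genes. Without F53S replicate 1 the members' median lay between SMOC1 (−0.13) and THBS1 (−0.02), so its size rests in part on that array. The fit with the slide term again called, among the members, SMOC2 alone in K57N against WT (background 1.91% lower, 2.60% higher) and in K57N against F53S cells (1.10% lower, 1.89% higher). The comparisons with WT share the WT arrays.

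SMOC2 and THBS2 are neighbors on chromosome 6, with 547 kb between their probes, and SPARCL1 and SPP1 on chromosome 4 lie 509 kb apart. To see whether other genes near SMOC2 also had lower signals, the genes within 2 Mb on either side of its probe were compared, a step chosen after the values were seen. Of 32 genes tested there, with THBS2 and SMOC2 not counted, 0 were called in K57N against WT cells (limma), without and with slide as a term, 19 had a lower and 13 a higher mean, and their median log2 fold change was −0.11, with a range from −0.87 to 1.17. None of them was as far below WT as SMOC2. Windows of the same size were also looked at around THBS2, SPARC and SMOC1. In K57N against WT cells 0 genes were called there by limma, and with slide as a term 1 near SPARC was called lower.

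Promoters of 9 of the 10 members were found in the RefSeq table (GRCh38.p14), each 300 bases from 250 before to 50 after the start of the gene. Those of the 3 members whose K57N arrays all lay below WT are shown, together with that of THBS1, in which the motifs of both an EGR and an ETS factor were found. Capitals mark the motifs found. The motifs searched on both strands were those of AP-1 (TGACTCA), of ETS factors of the PEA3 kind (AGGAAG), of EGR factors (GCGTGGGCG), of CREB (TGACGTCA) and of SMAD factors (GTCTAGAC).
SMOC2, chr6:168440934-168441233, plus strand: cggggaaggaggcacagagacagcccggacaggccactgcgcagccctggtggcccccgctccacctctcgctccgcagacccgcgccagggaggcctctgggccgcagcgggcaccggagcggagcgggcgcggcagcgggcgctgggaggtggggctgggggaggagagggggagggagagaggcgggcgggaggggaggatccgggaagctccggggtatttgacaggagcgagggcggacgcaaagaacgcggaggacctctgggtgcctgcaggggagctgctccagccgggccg
SPARC, chr5:151686866-151687165, minus strand: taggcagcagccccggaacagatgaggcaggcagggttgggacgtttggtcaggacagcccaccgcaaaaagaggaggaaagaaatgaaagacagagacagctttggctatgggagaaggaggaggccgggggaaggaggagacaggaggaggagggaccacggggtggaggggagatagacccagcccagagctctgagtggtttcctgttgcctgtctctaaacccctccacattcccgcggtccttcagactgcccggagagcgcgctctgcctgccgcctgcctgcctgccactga
THBS2, chr6:169253797-169254096, minus strand: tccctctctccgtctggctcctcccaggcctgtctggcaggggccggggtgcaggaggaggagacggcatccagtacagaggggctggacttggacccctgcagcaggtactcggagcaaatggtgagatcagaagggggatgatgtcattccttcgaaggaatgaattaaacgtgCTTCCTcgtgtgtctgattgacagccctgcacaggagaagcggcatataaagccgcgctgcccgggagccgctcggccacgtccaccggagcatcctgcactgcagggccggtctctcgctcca
THBS1, chr15:39580829-39581128, plus strand: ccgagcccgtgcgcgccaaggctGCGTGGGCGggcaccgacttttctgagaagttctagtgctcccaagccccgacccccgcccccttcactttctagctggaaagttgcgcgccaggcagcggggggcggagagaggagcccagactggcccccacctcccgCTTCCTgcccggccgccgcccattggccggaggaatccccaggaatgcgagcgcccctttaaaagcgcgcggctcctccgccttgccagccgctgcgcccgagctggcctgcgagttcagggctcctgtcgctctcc
The SMOC2 and SPARC promoters held none of the 5 motifs in these windows, and that of SMOC2 had a GC content of 75%. The PEA3-type motif was found in 4 of the 9 genes, SMOC1, THBS1, THBS2 and TNC, and in 33.6% of 35116 promoters of the same length. The 9 genes had 10 promoters, since SPOCK2 has more than 1, so members are counted by gene and the background by promoter. In THBS2 it lies 68 bases before the start and in THBS1 81 bases before it, in both on the strand opposite to the one printed, which therefore shows CTTCCT. The EGR motif was found in THBS1 alone, 218 bases before the start, and in 0.795% of all promoters. The AP-1, CREB and SMAD motifs were found in 0 of the 9 genes, and in 4.95%, 1.85% and 0.202% of all promoters. A match describes letters in this window, and no factor's binding was measured.

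The genes whose log2 signals ran most like those of SMOC2, SMOC1 and SPARC were looked up among 17019 other genes well above background on all 9 arrays. These are the members with the largest K57N difference among the 6 that were themselves well above background on all 9 arrays. The Pearson r over the 9 arrays is a description, since the arrays share slides and lines and the best of many genes was taken. For SMOC2 these were SH3PXD2A (r = 0.992), CTSO (r = 0.988) and OCA2 (r = 0.986). SH3PXD2A encodes the scaffold TKS5 of invadopodia, CTSO a cathepsin and OCA2 a melanosome transporter. For SMOC1 they were RANBP10 (r = 0.997), PCDHB13 (r = 0.991) and TMEM63A (r = 0.99), and for SPARC they were GALNT6 (r = 0.987), POLH (r = 0.986) and ATXN1L (r = 0.984).

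**Figure D5:**
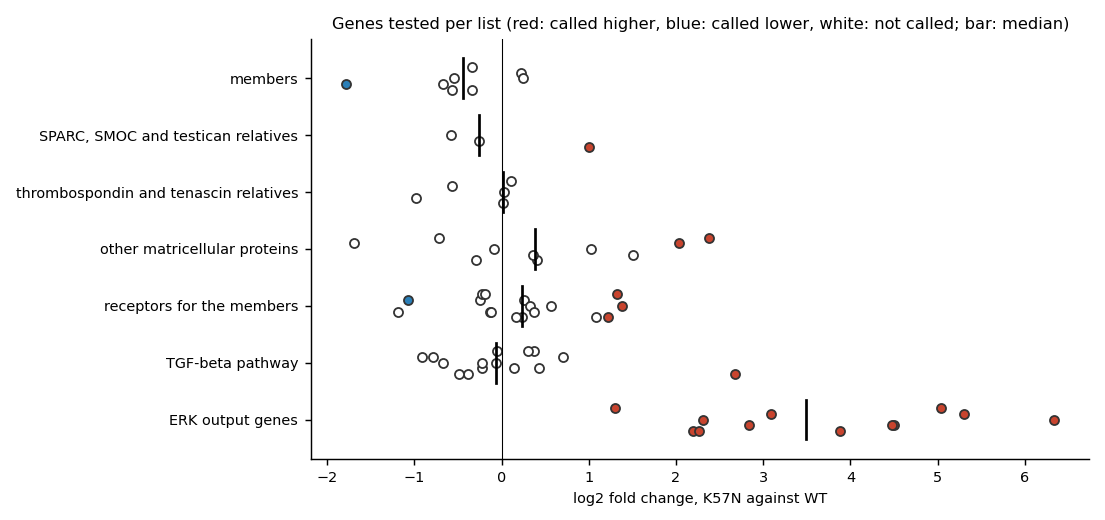
Log2 fold change of K57N against WT cells (x axis) for every gene tested in each list (y axis), called higher (red), called lower (blue) or not called (white), with the median of the list as a bar. The 12 ERK output genes, of which 5 passed the filter only through the mutant lines, lie between 1.30 and 6.33, and the 8 members between −1.78 and 0.24.

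Other genes of the same families and of the pathways around them were counted from lists written from general knowledge with earlier results of these data known. Their counts are read beside the 0.734% of all genes called lower and the 1.56% called higher in K57N cells, or, for the fit with the slide term, 1.91% and 2.60%. Of the SPARC, SMOC and testican relatives 3 of 4 were tested and 1 was called, FST (follistatin, a secreted antagonist of activin), which was higher by 1.001 on the log2 scale (adjusted p = 0.0357) and, of the 9 fits that left out 1 array, called only without F53S replicate 1 (adjusted p = 0.0259). In the other fits its adjusted p lay between 0.068 and 0.138. The fit with the slide term called it as well (adjusted p = 0.00299). The median of the 3 was −0.26. Of the thrombospondin and tenascin relatives 5 of 6 were tested and 0 were called, without and with slide as a term (limma), with a median of 0.01. In the list of other matricellular proteins, which also holds the protease PLAU, 10 of 15 genes were tested, 2 were called higher and 0 lower, and the median was 0.38. The 2 were TGFBI, an adhesion protein induced by TGF-beta, which rose by 2.38 (adjusted p = 0.00137), and PLAU, the urokinase plasminogen activator, a secreted protease and not itself a matricellular protein, which rose by 2.04 (adjusted p = 0.0197). PLAU was not called without WT replicate 2 (0.0858), WT replicate 3 (0.0947), K57N replicate 2 (0.054) or K57N replicate 3 (0.053). With slide as a term 3 of the 10 were called higher and 1 lower. Of the 4 SIBLING proteins other than SPP1, 0 were tested.

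Among 21 receptors that bind members, 17 were tested, 3 were called higher and 1 was called lower. ITGB3 passed the filter through its K57N arrays alone, and the median of the other 16 was 0.20. These 16 include STAB1, which passed through its WT arrays alone, with 0 K57N arrays well above background. CD44, a hyaluronan receptor that also binds SPP1, rose by 1.38 (adjusted p = 0.00436) and was called in all 9 fits that left out 1 array. EGFR, which the EGF-like repeats of TNC can engage, rose by 1.32 (adjusted p = 0.0136). It was not called without WT replicate 2 (0.0718), WT replicate 3 (0.0517) or K57N replicate 2 (0.0508). The syndecan SDC4 rose by 1.22 (adjusted p = 0.0251), and of the 9 fits was called only without WT replicate 1 (0.0149), F53S replicate 1 (0.0174) or F53S replicate 2 (0.0471). LRP1, the endocytic receptor that takes up THBS1 and THBS2, fell by 1.07 (adjusted p = 0.0426), and of the 9 fits was called only without F53S replicate 1 (0.0435). With slide as a term 4 were called higher and 2 lower. In the TGF-beta pathway list 15 of 17 genes were tested, and 1 was called, without and with slide as a term: TGFB1 rose by 2.68 (adjusted p = 6.5e-04), a call that held in all 9 fits. Its signal was 0.28 ± 0.29 (SD over 3 arrays) for WT, 0.81 ± 0.32 for F53S and 2.95 ± 0.16 for K57N. LRRC32 passed the filter through its K57N arrays alone, and the median of the other 14 was −0.14.

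The ERK output genes, transcripts known to follow ERK activity, give a scale for the members. All 12 were tested, but DUSP5, SPRY4, ETV4, ETV5 and PHLDA1 were well above background on only 2 of 3 WT arrays and passed through the mutant lines, where they are high, so these 5 are set aside. The other 7 passed in WT cells, and all 7 were called higher in K57N cells, with a median of 2.31. The 4 of the 7 with the largest rise were the phosphatase DUSP6 (6.33, adjusted p = 2.11e-04), the transcription factors EGR1 (5.30, adjusted p = 2.45e-04) and FOSL1 (2.84, adjusted p = 5.09e-04), and IER3 (2.31, adjusted p = 0.00134). SPRED1 was called in only 1 of the 9 fits that left out 1 array, that without F53S replicate 1 (adjusted p = 0.0183), and the other 6 were called in all 9 fits. In F53S cells 0 of the 7 were called (limma), and their median was 0.99. Set beside them on the same arrays, 7 of the 8 members tested had no called difference in K57N cells. The same was so for 18768 of all 19209 genes, so nothing is read from this count. An adjusted p above the threshold does not show that the lines were equal.

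The identity of the cells was checked with fixed markers. Among the HEK293-like markers NEFL, PAX2 and LHX1 were well above background on all 9 arrays, and none of these 3 was called (limma) in K57N against WT cells. NEFM was well above background on 2 arrays of each line, and INA on 1 WT, 1 F53S and 2 K57N arrays. Of the 9 fits that left out 1 array, LHX1 was called higher only in that without K57N replicate 3 (log2 fold change 1.46, adjusted p = 0.0219). Of 6 fibroblast markers only COL1A1 was tested, and COL1A2, DCN and PDGFRB were not well above background on any array. LUM was well above background on 2 arrays of each line. COL3A1 was so on 2 WT, 2 F53S and 0 K57N arrays and has no comparison. The K57N minus WT difference of COL1A1 was −1.19 (adjusted p = 0.0967, and between 0.0578 and 0.323 with 1 array left out), and was not called in these fits. It was called lower with slide as a term (0.00299) and with replicate number as a term (0.00754). Of 4 endothelial markers CDH5 and VWF were tested, of 3 leukocyte markers PTPRC and CD68 (LYZ was not analysed here), and of 4 osteoblast markers BGLAP, RUNX2 and SP7. PECAM1 was well above background on 2 arrays and KDR on 1, all of K57N cells, and ALPL on 2 arrays of each line. None of the markers tested was called in K57N against WT cells. With slide as a term CD68, a lysosomal protein that is also made outside leukocytes, rose by 2.05 (adjusted p = 6.14e-05, 0.0829 without that term and between 0.0459 and 0.261 with 1 array left out, the lowest without F53S replicate 1). Whether a change in these markers or in cell makeup had a part in the SMOC2 result was not tested. MAP2K1 read 2.38 ± 0.04 (SD over 3 arrays) for WT, 2.46 ± 0.06 for F53S and 2.86 ± 0.06 for K57N. Whether its probe tells the mutants apart or reads the introduced transcript was not tested, so it checks no label.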

How the data were processed

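RNA of HEK293 cells with MEK1 WT, F53S or K57N, 3 arrays per line, was labeled with Cy3 and hybridized to Agilent arrays read with Agilent Feature Extraction 10.10.1.1. The methods describe the arrays as independent experiments, so p measures the spread between arrays of 1 stable line each. The authors deposited for each spot the processed signal, an intensity less its background, detrended within each array and with no scaling across arrays. The deposited log2 values were compared with the log2 of this signal and differ from it by 1 constant for each array, with a tolerance of 0.02, in 100% of the probes compared (between 50555 and 50591 per array).

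Outlier and uneven spots were left out (between 278 and 501 per array), repeated spots were averaged, and log2 signals were scaled to each array's 75th percentile. Members were found by the array's gene name. For other genes a RefSeq accession gave the name of 28173 of 50598 probes. Probes that all 3 arrays of some line read well above background were tested (25397 probes, 19209 genes), each gene by its brightest probe. The fit was limma 3.58.1 in R 4.3.3 (with version 1.17.8 of data.table), with 1 mean per line and p adjusted by Benjamini-Hochberg over all genes. Python 3.11.15, numpy 2.4.6, pandas 2.3.3 and matplotlib 3.10.9 did the rest. The procedure was tested on simulated data. Promoters come from RefSeq (GRCh38.p14), and probe positions from the array's annotation (hg19).

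The members and lists were chosen with earlier results of these data known. Named genes are the members, the 3 genes most like each of the 3 bright members with the largest K57N difference, up to 4 called genes per list by size (for the ERK output genes, among those that passed in WT cells, a limit the plan did not have), the markers and MAP2K1. SPRED1, STAB1, and the genes that passed through a mutant line and not in WT cells, were named after their values were seen. Of the listed genes and cell markers, 2 are not reported here. After removal of line means, r across genes for arrays of the same replicate number was between 0.351 and 0.88, in part through the slides, so replicate number and slide were tried as blocks. The other alternatives were normexp (offset 50), quantile normalization, the deposited table, no filter, a gene's probes averaged, a filter on all 9 arrays, 2 lines at a time, each slide alone, the methods' t-test (unadjusted and adjusted), and leaving out each array. The slide block with no filter, and the 2 Mb windows around SMOC2, THBS2, SPARC and SMOC1, were chosen after seeing the data.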

Additional observations from a re-analysis of the deposited data

How the results depend on the processing

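With 3 arrays per line, dim probes such as those of SPOCK1 and THBS2 are read close to background, and members below it cannot be compared. Where an array was left out, a line kept 2 arrays and shared the spread of the others. On slide 1 each line has 1 array, so it gives differences and no test. The search for motifs in proteins was not run, since no protein table was at hand. Medians of all genes moved by under 0.1 between the scalings.

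In K57N against WT cells 441 genes were called. The count was 202 with normexp, 186 with no filter, 272 with probes well above background on all 9 arrays, 839 with the replicate block, 866 with the slide block, 754 with the slide block and no filter, 732 on slide 2 alone, 114 by the adjusted t-test of the methods (members 0) and 737 by the unadjusted one. With 1 array left out it lay between 215 and 536, with 234 without WT replicate 2, 215 without WT replicate 3, 222 without K57N replicate 2 and 219 without K57N replicate 3, and the members called were 1 in each. In F53S against WT cells 0 genes were called, 1 with normexp, 5 on slide 2 alone, 24 by the unadjusted t-test and between 0 and 3 with 1 array left out, 3 being without WT replicate 1.

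In K57N against F53S cells 231 genes were called. The count was 84 with normexp, 70 with no filter (members 0), 125 with probes well above background on all 9 arrays, 122 with 2 lines at a time (members 0), 554 with the replicate block, 574 with the slide block, 436 with the slide block and no filter, 485 on slide 2 alone, 27 by the adjusted t-test (members 0) and 494 by the unadjusted one. With 1 array left out it lay between 76 and 253, and the members called between 0 and 1, with 79 without F53S replicate 2, 76 without F53S replicate 3, 98 without K57N replicate 2 and 90 without K57N replicate 3, and 139 without WT replicate 3 and 142 without K57N replicate 1. Of the genes called, 79.7% were higher in K57N cells, and 94.0% with normexp. The causes of these changes were not tested.

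With replicate number as a block the adjusted p of SMOC2 was 8.9e-04 in K57N against WT and 0.00424 in K57N against F53S cells, and the members called were SMOC2 in both.

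None of the changes of sign below concerns a called member, and the ranges are those with 1 array left out. In K57N against WT cells SPOCK1 (0.23) was −0.055 with normexp, −0.31 on slide 2, and between −0.15 and 0.85 with 1 array left out (−0.02 without WT replicate 1, −0.15 without WT replicate 2, −0.06 without K57N replicate 1). THBS1 (−0.34) was 0.032 as the mean of its probes, of which the dimmer passed the filter through the mutant lines only, and TNC (0.24) was −0.040 without K57N replicate 1, with a range to 0.46. In F53S against WT cells TNC (−0.05) was 0.014 with normexp, 0.12 without WT replicate 1, 0.08 without F53S replicate 2, with a range from −0.18. SPARC (−0.11) was 0.014 on slide 2, 0.033 without WT replicate 1, with a range from −0.20, and −0.37 on slide 1. THBS1 (0.07) was −0.16 on slide 2, −0.07 without WT replicate 2, −0.32 without F53S replicate 1, with a range to 0.36, and 0.53 on slide 1. SMOC1 (−0.19) was 0.17 without WT replicate 1, with a range from −0.44. SPOCK2 (−0.07) was 0.10 without WT replicate 1, 0.14 without F53S replicate 2, 0.09 without F53S replicate 3, with a range from −0.44, and 0.32 on slide 1. In K57N against F53S cells SPOCK2 (−0.27) was 0.094 without F53S replicate 1, with a range from −0.51, and −0.54 on slide 1. The cause was not tested.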
